A study of Saccharomyces cerevisiae with 12 samples.

Results

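The transcripts of the translation factors, the proteins that carry the ribosome from mRNA recruitment through elongation to termination, were followed in oxidized and reduced subpopulations of ageing budding yeast. The 41 genes were taken by name from a list chosen with earlier results of these data known. All 41 were rows of the deposited table of 6645 genes. Of these, 40 averaged 20 PPM or more (PPM being the share of a library's reads in parts per 1e6) and were tested. The remaining gene was GCN3. The haploid wild-type strain, which the methods name as BY4741 with leu2, his3, met15 and ura3 alleles, carried Grx1-roGFP2, a GFP-based reporter of the cytosolic glutathione redox state. Cells were cultured for 48 or 72 hr and then separated by FACS on the reporter's fluorescence, which gave 4 groups, oxidized 48 hr, reduced 48 hr, oxidized 72 hr and reduced 72 hr, with 3 libraries each, described as biological replicates. All groups share the strain and the reporter, and none is an unsorted culture, so each comparison is between the sorted fractions.

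Initiation starts when the cap-binding complex recruits an mRNA, and eIF3, eIF2 with the initiator tRNA, and the start-codon selection factors then place the small ribosomal subunit on the AUG. eEF1A delivers each aminoacyl-tRNA, eEF2 and the fungal factor eEF3 move the ribosome along, eIF5A helps peptide bonds to form at difficult sequences such as runs of proline, and the release factors end the protein. In yeast several of these proteins are encoded by gene pairs, and cells entering stationary phase are known to lower their protein synthesis.

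Only the 3′ part of each mRNA was counted, so the ends of the coding sequences decide which members can be told apart. The last 60 coding bases of 2 pairs, read from the R64 (sacCer3) genome with capitals at the positions that differ within a pair, show the extremes. The 2 genes of eEF1A are identical over this stretch, on chrXVI (701911 to 701970, plus strand) for TEF1 and on chrII (478988 to 479047, plus strand) for TEF2. The 2 genes of eIF5A differ at 9 positions, on chrV (86090 to 86149, plus strand) for HYP2 and on chrX (524908 to 524967, minus strand) for ANB1.
TEF1: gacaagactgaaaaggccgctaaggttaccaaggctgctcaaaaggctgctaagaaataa
TEF2: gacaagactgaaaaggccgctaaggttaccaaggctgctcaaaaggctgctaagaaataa
HYP2: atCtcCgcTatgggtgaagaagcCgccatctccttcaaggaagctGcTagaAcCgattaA
ANB1: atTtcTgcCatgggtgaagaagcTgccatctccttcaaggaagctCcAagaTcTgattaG

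TEF1 and TEF2 had no difference in their last 350 coding bases, TIF1 and TIF2 (the eIF4A helicase) had 3, and EFT1 and EFT2 (eEF2) had 1. Of the 50-base stretches of the counting window, 60.3% were shared within the TEF pair, 49.3% within the TIF pair and 50.7% within the EFT pair. How the authors assigned such reads is not stated, so the split between these copies is uncertain. HYP2 and ANB1 had 37 differences in 350 bases and shared no 50-base stretch, nor did TEF4 with CAM1, TIF4631 with TIF4632 or any other member with another gene. Their values are those of single genes as far as sequence goes.

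Each library held between 90403 and 241084 reads, so that 1 read was worth 4.15 to 11.1 PPM. The a-type genes MFA1, MFA2 and STE2 averaged 539.6, 485 and 158 PPM, while the alpha-type genes MF(ALPHA)1, MF(ALPHA)2 and STE3 averaged 51.7, 0.83 and 20.2 PPM. MFA1 was at 437 PPM or more and MF(ALPHA)1 at 133 PPM or less in every library, which goes against the MATα genotype that the methods give. Of the 4 genes that the strain's marker alleles affect, MET17 (met15) was at 0 in all libraries and LEU2 averaged 4.72 PPM, while HIS3 averaged 214 PPM (158 to 265 PPM) and URA3 1565 PPM (1117 to 1933 PPM). Per the methods the cells were grown under plasmid selection, and for imaging in medium without uracil. The source of the URA3 reads was not tested. Differences below are oxidized minus reduced on the log2(PPM + 10) scale, from limma with Benjamini-Hochberg adjustment over the 4776 genes tested and a threshold of 0.05, a scale on which changes of low transcripts come out too small. In sorted bulk samples, fewer cells with a transcript and less of it per cell cannot be told apart.

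HYP2, the gene of eIF5A in aerobic cells, was lower in the oxidized subpopulation at both ages, and it was the only translation factor whose transcript passed the threshold. HYP2 was thus 1 call among 40 members, while 2.43% of all genes were called lower at 48 hr, 4.75% at 72 hr and 6.97% in the average. The 3 oxidized libraries at 48 hr held 730.1, 932 and 917 PPM, and the 3 reduced ones 1377, 1192 and 1233 PPM. At 72 hr they held 900.0, 1139.7 and 949 PPM and 1614, 1456 and 1488 PPM. Every oxidized library lay below every reduced library, within each age and across the ages. The group means were 859.8 ± 113 PPM (SD, n = 3) against 1267 ± 97.4 PPM (SD, n = 3) at 48 hr and 996 ± 127 PPM (SD, n = 3) against 1519 ± 83.5 PPM (SD, n = 3) at 72 hr. The log2 fold change was -0.56 (SE 0.16, adjusted p = 0.029) at 48 hr, -0.61 (SE 0.16, adjusted p = 0.0051) at 72 hr and -0.58 (SE 0.11, adjusted p = 7.2e-05) averaged over both ages. The 95% interval of the averaged value was -0.81 to -0.36. HYP2 is YEL034W on chromosome V (85676 to 86149, plus strand, sacCer3), a coding sequence of 474 bases in 1 exon, and 2221 reads were counted for it.

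The averaged difference of HYP2 stayed past the threshold in all 19 alternatives that changed the fit, and at no age did it reach 2-fold, so a demand for that size as well left no member called. By contrast, the call at 48 hr was lost without oxidized 48 hr replicate 1 (log2 fold change -0.45, limma adjusted p = 0.18) and without reduced 48 hr replicate 1 (-0.50, 0.15), replicate 2 (-0.60, 0.052) or replicate 3 (-0.58, 0.070), and under median-of-ratios scaling (-0.50, 0.063). When the prior variance was given no trend with expression, the calls at 48 hr (limma adjusted p = 0.29) and 72 hr (0.14) were both lost. The counting window of HYP2, placed here from the end of the coding sequence, overlapped by 101 bp that of MTC7 on the same strand. MTC7 had at most 84.4 PPM in any library, against at least 730.1 PPM for HYP2, and its own log2 fold changes were -0.23 (SE 0.45, adjusted p = 0.89) and -0.37 (SE 0.45, adjusted p = 0.71).

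**Figure D1:**
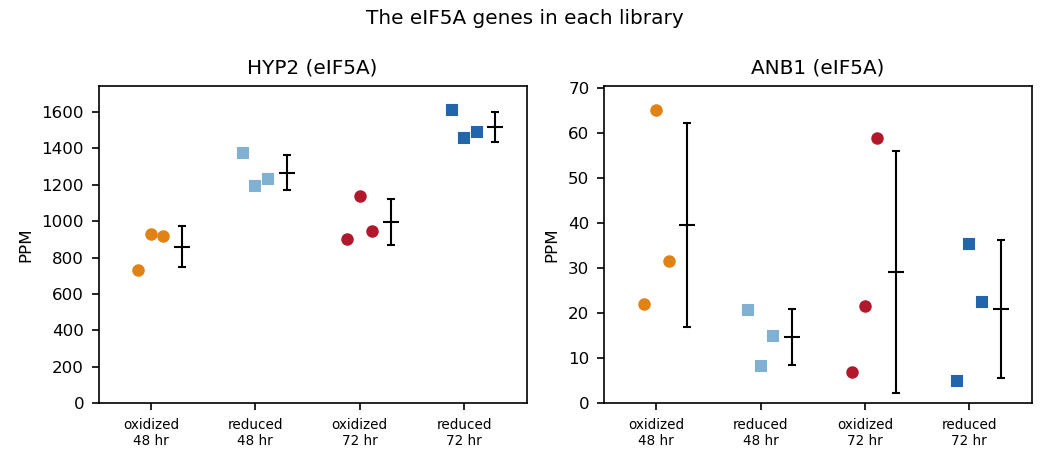
PPM of the eIF5A genes HYP2 and ANB1 in each library (points, left to right replicates 1 to 3) by group, with the group mean and SD beside them and axes that start at 0. The oxidized libraries of HYP2 sit between 730.1 and 1139.7 PPM, all below the reduced ones, while the libraries of ANB1 scatter between 4.97 and 65.3 PPM.

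ANB1 (YJR047C, chromosome X, 524908 to 525381, minus strand) encodes the second eIF5A, a protein of 157 residues like that of HYP2 with 90.5% identity, and is known as the copy expressed at low oxygen. It was among the weakest members, with 47 reads over the 12 libraries. Its libraries held 22.1, 65.3 and 31.6 PPM in oxidized and 20.7, 8.39 and 15.0 PPM in reduced cells at 48 hr, and 6.98, 21.6 and 58.9 PPM and 4.97, 35.3 and 22.5 PPM at 72 hr. The oxidized libraries lay above the reduced ones at 48 hr by as little as 22.1 against 20.7 PPM, and they overlapped at 72 hr. The log2 fold change of 0.94 (SE 0.56, adjusted p = 0.46) at 48 hr and of 0.60 (SE 0.39, adjusted p = 0.4) averaged over both ages did not pass the threshold, and the averaged interval of -0.19 to 1.39 leaves a rise, a small fall and no difference possible at this depth. HYP2 exceeded ANB1 in 12 of 12 libraries, by a ratio of 14.3 to 325 (median 59.3).

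Because the 2 eIF5A genes are known to answer oppositely to oxygen, the bases from 250 to 101 before their start codons were read for 2 short motifs, on both strands. They are CCAAT, the core of the site of the Hap2/3/4/5 activator of respiratory genes, and ATTGTT, the core of the site of Rox1, the repressor of hypoxic genes. Capitals mark the matches. The stretches are chrV:85426-85575 (plus strand) for HYP2 and chrX:525482-525631 (minus strand) for ANB1.
HYP2: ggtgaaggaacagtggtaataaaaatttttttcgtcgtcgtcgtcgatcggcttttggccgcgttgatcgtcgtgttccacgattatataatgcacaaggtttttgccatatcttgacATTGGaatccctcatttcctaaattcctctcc
ANB1: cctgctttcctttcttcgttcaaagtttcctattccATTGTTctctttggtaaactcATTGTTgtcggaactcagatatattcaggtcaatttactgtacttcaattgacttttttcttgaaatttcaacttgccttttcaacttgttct
HYP2 held CCAAT once, on the reverse strand (ATTGG), 132 bases before the start codon, and no ATTGTT. ANB1 held ATTGTT at 214 and 193 bases before the start codon and no CCAAT. Over 6007 genes, 23.0% of such stretches hold CCAAT and 17.1% ATTGTT, and among the 41 members 9 and 4 do. The matches are descriptions of letters, and no binding was measured.

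For the other members the comparison showed no call in either direction. At 48 hr 0 of 40 members were higher in oxidized cells, where 1.42% of all genes were, and 1 was lower, where 2.43% of all genes were (limma). At 72 hr the members again gave 0 higher and 1 lower, beside 4.86% and 4.75% of all genes. Averaged over both ages they gave 0 higher and 1 lower, beside 4.90% and 6.97%. With an unadjusted p under 0.05 there were 3 members at 48 hr (14.6% of all genes), 4 at 72 hr (20.4%) and 3 in the average (23.2%). The 3 oxidized libraries lay wholly on one side of the 3 reduced ones for 4 of 40 members at 48 hr (10% of them, against 17.5% of all genes), namely HYP2 and CDC33 below and ANB1 and GCD2 above. At 72 hr this held for 7 of 40 members (17.5%, against 26.0% of all genes), HYP2, EFB1, NIP1, TIF11 and GCD1 below and TEF2 and SUI3 above.

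**Figure D2:**
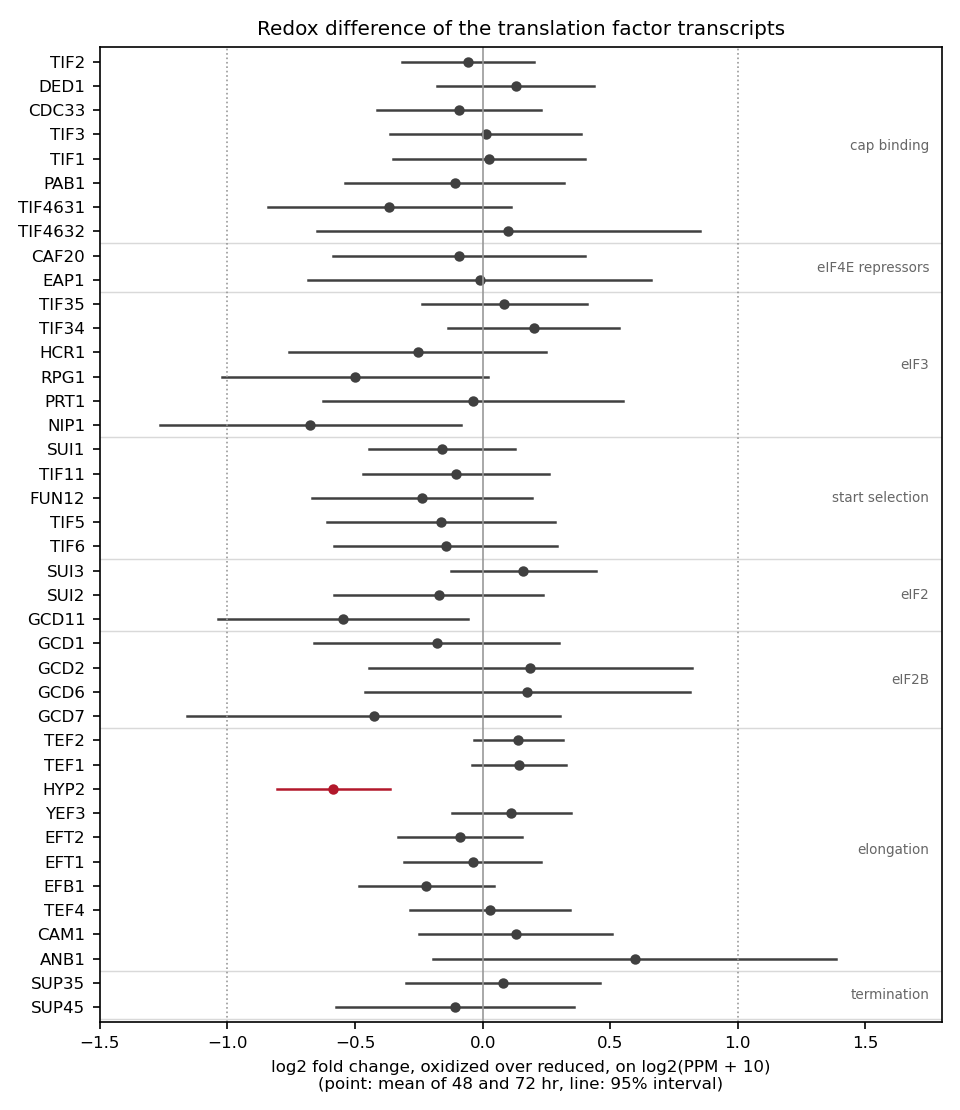
Log2 fold change of oxidized over reduced cells averaged over both ages (points) with 95% intervals (lines) for the 40 members tested, grouped by role, with dotted lines at a 2-fold difference. HYP2, in red at -0.58, is the member past the adjusted threshold, and 35 of the 40 intervals stay within the dotted lines.

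Centred near 0, the members had a median log2 fold change of -0.01 at 48 hr, -0.14 at 72 hr and -0.07 in the average, beside -0.07, -0.11 and -0.08 over all genes tested. With median-of-ratios scaling the medians of the members were 0.05, -0.07 and -0.00, and those of all genes -0.01, -0.04 and -0.01, so the sign of the members' median at 48 hr turns with the scaling. In the average the 95% interval lay within 2-fold in either direction for 35 of 40 members (87.5%, against 66.1% of all genes) and within 1.5-fold for 23. At the single ages 27 of 40 intervals lay within 2-fold (67.5%, against 38.5% of all genes at 48 hr and 32.5% at 72 hr). The members' median SE of 0.20 in the average compares with 0.28 over all genes, since the members are more strongly expressed. For most members an averaged change of 2-fold or more is thus outside the interval.

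eEF1A, which brings aminoacyl-tRNA to the ribosome, had the most abundant transcripts of all members. TEF2 held 6748, 7020.0 and 5687 PPM in oxidized and 6230.2, 6813 and 7009 PPM in reduced cells at 48 hr, and 7583, 6859.9 and 7498 PPM and 5809.9, 5379 and 6305 PPM at 72 hr. TEF1 held 4801, 4643 and 4332 PPM and 4824, 3919 and 4234 PPM at 48 hr, and 4897, 4537 and 5264 PPM and 4052, 3881 and 4947 PPM at 72 hr. The libraries of TEF2 separated at 72 hr, with the oxidized ones above, and those of TEF1 overlapped at both ages. The difference of TEF2 at 72 hr was 0.33 (SE 0.12, adjusted p = 0.089) and that of TEF1 0.20 (SE 0.13, adjusted p = 0.43), so neither passed. TEF2 did pass with median-of-ratios scaling (0.41, limma adjusted p = 0.022) and without reduced 72 hr replicate 3 (0.39, 0.015). Since the copies share their 3′ ends, their PPM were also summed. The sum differed by 0.27 (SE 0.12, limma adjusted p = 0.15) at 72 hr and by 0.01 at 48 hr.

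The exchange factor eEF1B recharges eEF1A with GTP. EFB1, its catalytic subunit, held 502, 368 and 371 PPM in oxidized and 541, 530.1 and 637 PPM in reduced cells at 72 hr, against 531, 513 and 527 PPM and 564, 469.9 and 519 PPM at 48 hr. Its libraries separated at 72 hr and overlapped at 48 hr. The log2 fold change at 72 hr was -0.46 (SE 0.19, adjusted p = 0.12). TEF4 and CAM1, which encode the 2 forms of the gamma subunit, differ enough (64.5% protein identity) to be counted apart. TEF4 held 376, 401 and 242 PPM and 299, 327 and 301 PPM at 48 hr and 398, 303 and 348 PPM and 283, 332 and 490.2 PPM at 72 hr, in that order of redox state. CAM1 held 99.6, 252 and 206 PPM and 195, 185 and 196 PPM at 48 hr and 272, 267 and 183 PPM and 174, 205 and 158 PPM at 72 hr. For both genes the oxidized and reduced libraries overlapped at each age, and the averaged log2 fold changes were 0.03 (SE 0.16, adjusted p = 0.96) and 0.13 (SE 0.19, adjusted p = 0.75). TEF4 exceeded CAM1 in 12 of 12 libraries, by a ratio of 1.14 to 3.78.

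eEF2, the translocase, is encoded by EFT1 and EFT2, whose proteins are identical. EFT1 held 564, 541 and 422 PPM in oxidized and 485, 453 and 466 PPM in reduced cells at 48 hr, and 565, 476 and 430.3 PPM and 531, 474 and 682 PPM at 72 hr. EFT2 held 631, 699 and 548 PPM and 693, 646 and 849.8 PPM at 48 hr, and 851, 714 and 813 PPM and 715, 820.0 and 783 PPM at 72 hr. The libraries of both genes overlapped between the redox states. Their averaged log2 fold changes were -0.04 (SE 0.13, adjusted p = 0.92) and -0.09 (SE 0.12, adjusted p = 0.72), and that of the summed pair was -0.07 (limma adjusted p = 0.77). YEF3, the gene of the eEF3 ATPase that fungi need for elongation, had the smallest ratio of highest to lowest library of all members tested (1.32, 714 to 940.2 PPM) and a log2 fold change of 0.11 (SE 0.12, adjusted p = 0.63) with an interval of -0.12 to 0.34.

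**Figure D3:**
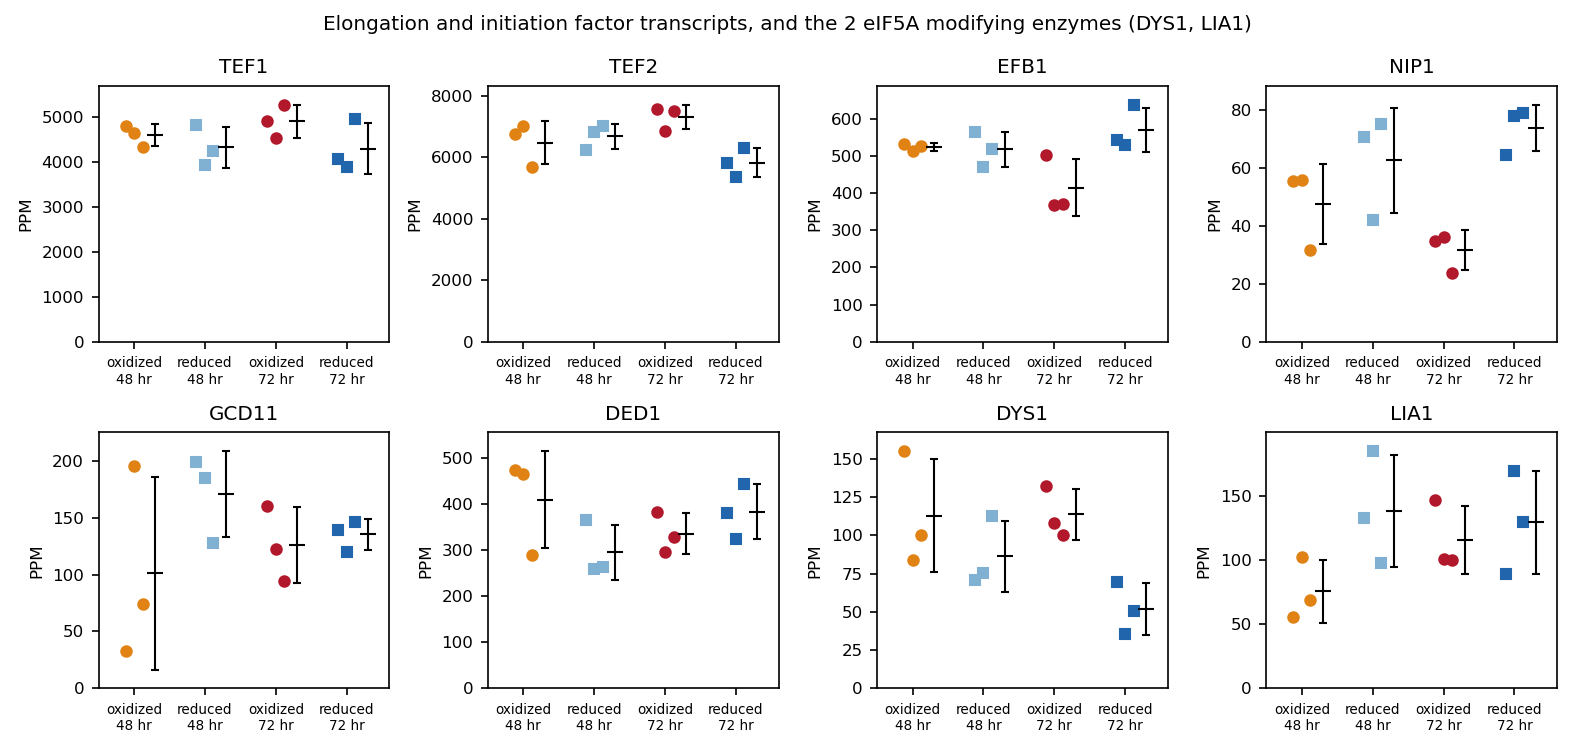
PPM in each library (points, left to right replicates 1 to 3) by group, with the group mean and SD beside them, for the eEF1A genes TEF1 and TEF2, the factors EFB1, NIP1, GCD11 and DED1, and the enzymes DYS1 and LIA1 that modify eIF5A, with axes that start at 0. TEF2, EFB1, NIP1 and DYS1 show oxidized and reduced libraries apart at 72 hr and overlapping at 48 hr.

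The cap-binding group gave 0 calls among 8 members in all 3 redox comparisons (limma). Of all genes, 1.42% were called higher and 2.43% lower at 48 hr. The shares were 4.86% and 4.75% at 72 hr and 4.90% and 6.97% in the average. In a group this small, 0 calls cannot be told from those shares. At 48 hr 1 member had an unadjusted p under 0.05, beside 14.6% of all genes. CDC33, the cap-binding protein eIF4E, had a log2 fold change of -0.40 (SE 0.23, adjusted p = 0.43) at 48 hr and 0.21 (SE 0.23, adjusted p = 0.67) at 72 hr. Its partner eIF4G, the scaffold that joins the cap to the ribosome, is encoded by TIF4631 and TIF4632. TIF4631 held 66.4, 46.6 and 121 PPM in oxidized and 116, 92.3 and 113 PPM in reduced cells at 48 hr, and 90.7, 86.6 and 100.2 PPM and 94.3, 141 and 101 PPM at 72 hr. TIF4632 held 33.2, 18.6 and 5.27 PPM and 29.0, 8.39 and 22.6 PPM at 48 hr, and 27.9, 36.1 and 35.4 PPM and 19.9, 42.4 and 16.9 PPM at 72 hr. The libraries of both overlapped, TIF4631 was the higher in 12 of 12, and the averaged log2 fold changes were -0.37 (SE 0.24, adjusted p = 0.38) and 0.10 (SE 0.37, adjusted p = 0.93). The window of TIF4632 overlaps by 138 bp that of TYW3 on the opposite strand, which had 24.2 PPM against 24.6 PPM, and whether strand was used in counting is not stated.

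The helicase eIF4A, which unwinds mRNA ahead of the scanning ribosome, comes from TIF1 and TIF2. TIF1 held 254, 242 and 169 PPM in oxidized and 183, 243 and 128 PPM in reduced cells at 48 hr, and 147, 188 and 141 PPM and 228, 141 and 197 PPM at 72 hr. TIF2 held 575, 559 and 532 PPM and 448, 587 and 474 PPM at 48 hr, and 509, 563 and 513 PPM and 685, 707 and 529.7 PPM at 72 hr. The libraries overlapped for each copy. The summed pair had a log2 fold change of 0.19 (limma adjusted p = 0.70) at 48 hr, -0.27 (0.41) at 72 hr and -0.04 (0.90) in the average. DED1, a second helicase of scanning, had 476, 466 and 289.9 PPM in oxidized and 365, 260.1 and 263 PPM in reduced cells at 48 hr, a log2 fold change of 0.44 (SE 0.22, adjusted p = 0.33), and -0.18 (SE 0.22, adjusted p = 0.7) at 72 hr. TIF3 (eIF4B, which assists eIF4A) and PAB1 (the poly(A)-binding protein) had averaged log2 fold changes of 0.01 (SE 0.19, adjusted p = 0.98) and -0.11 (SE 0.21, adjusted p = 0.83). The repressors CAF20 and EAP1, which compete with eIF4G for eIF4E, had -0.09 (SE 0.25, adjusted p = 0.88) and -0.01 (SE 0.33, adjusted p = 0.99). The window of EAP1 overlaps by 68 bp that of TOR2 on the opposite strand, which had 107 PPM against 44.0 PPM.

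eIF3, the scaffold on the small subunit, also gave 0 calls among its 6 members in the 3 redox comparisons (limma). In these at most 4.90% of all genes were called higher and 6.97% lower, so 0 of 6 cannot be told from those shares. The 6 averaged log2 fold changes of eIF3 ran from -0.68 for NIP1 to 0.20 for TIF34. NIP1, the eIF3c subunit, held 34.9, 36.1 and 23.6 PPM in oxidized and 64.6, 77.8 and 78.9 PPM in reduced cells at 72 hr, and 55.3, 55.9 and 31.6 PPM and 70.5, 42.0 and 75.2 PPM at 48 hr. The 72 hr libraries separated, those at 48 hr overlapped, and 101 reads in all stood behind these values. The log2 fold change was -1.02 (SE 0.42, adjusted p = 0.12) at 72 hr and -0.68 (SE 0.29, adjusted p = 0.14) in the average, and it passed in none of the alternatives. RPG1 (eIF3a) had -0.50 (SE 0.26, adjusted p = 0.24) in the average, PRT1 (eIF3b) -0.04 (SE 0.29, adjusted p = 0.96), TIF35 (eIF3g) 0.09 (SE 0.16, adjusted p = 0.82) and HCR1 (eIF3j) -0.25 (SE 0.25, adjusted p = 0.61).

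The 5 genes listed here under start-codon selection and subunit joining, a heading that also takes in TIF6, had no call (limma, smallest adjusted p 0.37). In the 3 redox comparisons at most 4.90% of all genes were called higher and 6.97% lower. Of the 5 genes, 0 had an unadjusted p under 0.05 in these comparisons, beside 14.6%, 20.4% and 23.2% of all genes. All 5 had a log2 fold change below 0 at 72 hr, where the median of all genes was -0.11, except that TIF5 was at 0.012 without oxidized 72 hr replicate 1. A value below 0 at 72 hr was found for 2770 of the 4776 genes tested and for 24 of 40 members. The 5 are SUI1 (eIF1, -0.31), TIF11 (eIF1A, -0.30), TIF5 (eIF5, -0.25), FUN12 (eIF5B, -0.50) and TIF6 (eIF6, -0.39), with SE of 0.20 to 0.31. Summed, they took 753, 908 and 909 PPM in the oxidized libraries at 72 hr, in rising order, and 1071, 1083 and 1109.8 PPM in the reduced ones. At 48 hr the sums ran from 885 to 984 PPM and from 831 to 963 PPM. The sums separated at 72 hr and overlapped at 48 hr, and no test was made of them. Of all single genes tested, 26.0% separated at 72 hr. The eIF2B sum separated at 48 hr in the other direction, with 242 to 253 PPM in oxidized and 151 to 228 PPM in reduced libraries. This sum was not tested either, and 17.5% of all single genes tested separated at 48 hr. Both shares are of single genes and not of sums.

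eIF2 carries the initiator tRNA, and eIF2B reloads it with GTP and is the point at which the Gcn2 kinase slows initiation. GCD11, eIF2gamma, held 33.2, 196 and 73.8 PPM in oxidized and 199, 185 and 128 PPM in reduced cells at 48 hr, and 160.5, 123 and 94.3 PPM and 139, 120.2 and 147 PPM at 72 hr. Oxidized 48 hr replicate 2 lay among the reduced libraries, and the other 2 oxidized libraries below them. The log2 fold change at 48 hr was -0.97 (SE 0.35, adjusted p = 0.12), and without that library it was -1.56 (limma adjusted p = 0.0025), so its side of the threshold rests on 1 library, as does that of the averaged value (-0.55 with an adjusted p of 0.15, and -0.84 with 0.0080 when that library was left out). At 72 hr it was -0.12 (SE 0.35, adjusted p = 0.89). SUI2 (eIF2alpha) and SUI3 (eIF2beta) had averaged log2 fold changes of -0.17 (SE 0.20, adjusted p = 0.68) and 0.16 (SE 0.14, adjusted p = 0.55).

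Among the eIF2B genes the averaged log2 fold changes were -0.18 (SE 0.24, adjusted p = 0.72) for GCD1 (gamma), 0.19 (SE 0.32, adjusted p = 0.79) for GCD2 (delta), 0.18 (SE 0.32, adjusted p = 0.81) for GCD6 (epsilon) and -0.43 (SE 0.36, adjusted p = 0.53) for GCD7 (beta). These are weak transcripts, with means of 30.8 to 87.0 PPM, and their intervals reach beyond 1.5-fold. The window of GCD2 overlaps by 136 bp that of TOM20 on the opposite strand, which had 91.3 PPM against 63.1 PPM. The window of GCD1 overlaps by 206 bp that of RPN8 on the opposite strand. At 72 hr RPN8, a proteasome gene at 243 PPM, was lower in oxidized cells, with a log2 fold change of -0.90 (SE 0.24, adjusted p = 0.009) that no longer passed without oxidized (limma adjusted p = 0.054) or reduced (0.088) 72 hr replicate 2 or without the variance trend (0.085), and GCD1 had -0.65 (SE 0.34, adjusted p = 0.27). GCN3 (alpha), the lowest member, held 11.1, 9.32 and 0 PPM in oxidized 48 hr, 0, 0 and 0 PPM in reduced 48 hr, 0, 0 and 0 PPM in oxidized 72 hr and 4.97, 0 and 0 PPM in reduced 72 hr libraries, which are 3 reads in all. Its window overlaps that of RPC37 on the opposite strand by 281 bp, and RPC37 had 95.2 PPM. No fold change is given for GCN3. The release factors SUP45 (eRF1) and SUP35 (eRF3) had averaged log2 fold changes of -0.11 (SE 0.23, adjusted p = 0.84) and 0.08 (SE 0.19, adjusted p = 0.86).

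**Figure D4:**
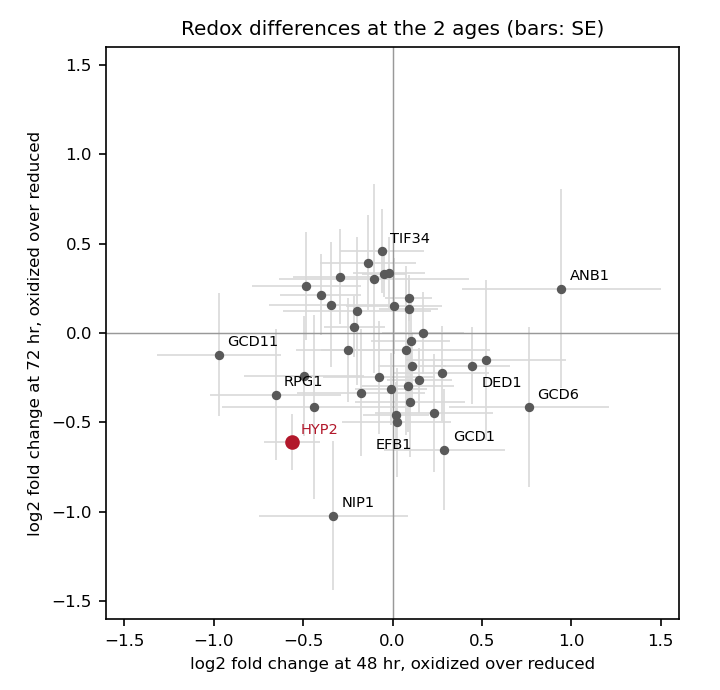
Log2 fold change of oxidized over reduced cells at 72 hr against that at 48 hr for the 40 members tested (points), with SE bars and no library shared between the ages. HYP2, in red, lies at -0.56 and -0.61, GCD11 reaches -0.97 at 48 hr and NIP1 -1.02 at 72 hr.

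Counting at the 3′ end gives about 1 position per mRNA, so levels can be set side by side without a length correction. The members covered a range from 6579 PPM for TEF2, at rank 8 of all transcripts, to 2.11 PPM for GCN3. TEF1 followed with 4528 PPM, HYP2 with 1161 PPM, YEF3 with 826 PPM, EFT2 with 730.3 PPM and TIF2 with 557 PPM. TEF2 was above TEF1 in 12 of 12 libraries (ratio 1.27 to 1.74), EFT2 above EFT1 in 12 of 12 (1.12 to 1.89) and TIF2 above TIF1 in 12 of 12 (2.26 to 5.0), with the split of shared reads uncertain. EFT1 and EFB1, with 507 and 506 PPM, had overlapping ranges over the 12 libraries (422 to 682 PPM and 368 to 637 PPM).

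Together the 41 genes took 2.04% of the reads of a library (1.83% to 2.20%). The 10 elongation genes made up 75.6% of this, TEF1 and TEF2 alone 54.5%, the cap-binding group 9.32%, the start-codon group 4.64%, eIF3 4.0%, eIF2 3.25%, termination 1.31%, eIF2B 1.13% and the eIF4E repressors 0.74%. The 137 cytosolic ribosomal protein genes took 12.3%. In the 2 fractions harvested at 48 hr, the members' sum was 19793 ± 1313 PPM (oxidized) and 20143 ± 401 PPM (reduced), and at 72 hr it was 21371 ± 791 PPM (oxidized) and 20201 ± 1437 PPM (reduced), each with its SD over 3 libraries. The ranges of the redox states overlapped at both ages, but with median-of-ratios scaling those at 72 hr did not (20476 to 21887 PPM in oxidized and 18079 to 20229 PPM in reduced libraries). Without TEF1 and TEF2 the sum at 72 hr was 9158 ± 343 PPM (oxidized) and 10076 ± 424 PPM (reduced), and these ranges, up to 9529.8 PPM and from 9811 PPM, did not overlap, whereas with that scaling they did (up to 9400.3 PPM and from 9301 PPM).

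**Figure D5:**
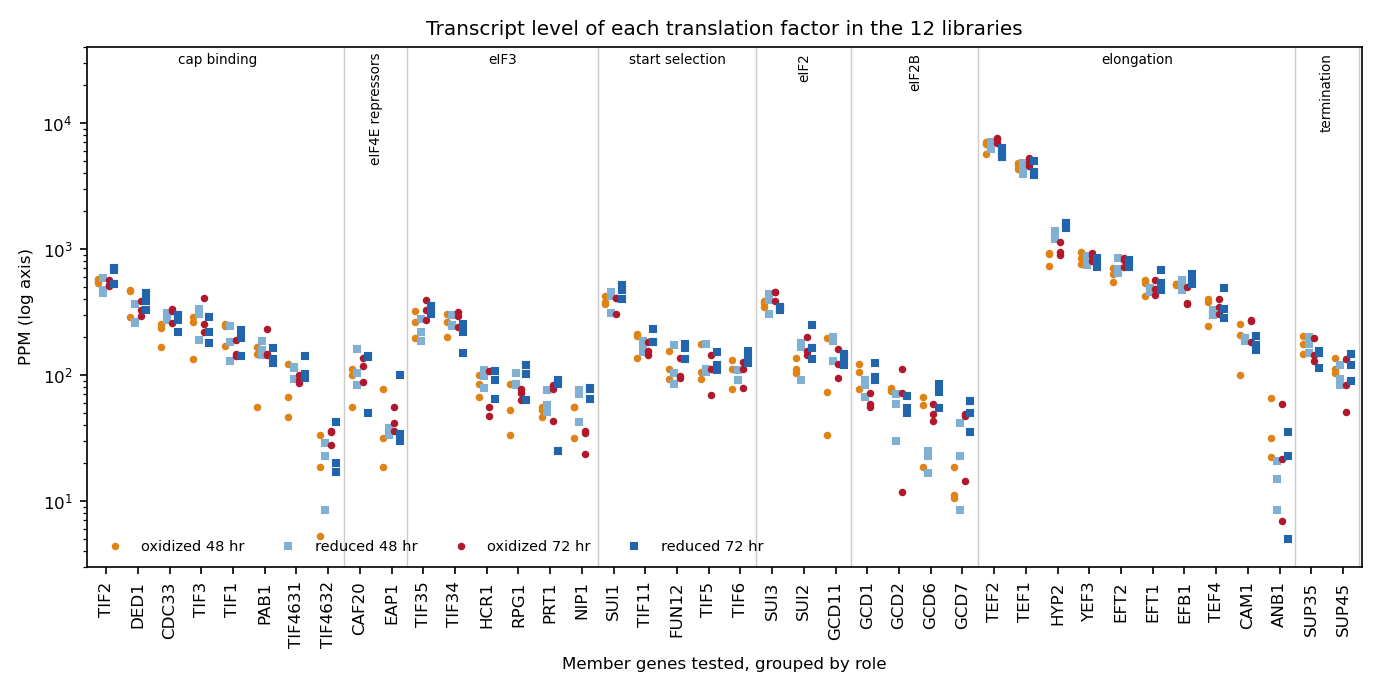
PPM on a log axis of each member tested in the 12 libraries (points, coloured by group), grouped by role and ordered by mean within a role. TEF2 and TEF1 stand at 3881 PPM or more in every library, and the groups overlap for most members, with HYP2 split by redox state.

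Between 48 and 72 hr no member passed the threshold in limma, neither in oxidized cells (smallest adjusted p 0.46, with 0.440% of all genes called) nor in reduced cells (0.11, with 2.32%). An unadjusted p under 0.05 was reached by 1 of 40 members in oxidized cells (9.90% of all genes) and by 2 of 40 in reduced cells (12.0%). CDC33 in oxidized cells had 0.48 (SE 0.23, adjusted p = 0.46). In reduced cells GCD6 had 1.36 (SE 0.45, adjusted p = 0.11) and TIF35 had 0.52 (SE 0.23, adjusted p = 0.32). HYP2 differed by 0.21 (SE 0.16, adjusted p = 0.68) in oxidized and 0.26 (SE 0.16, adjusted p = 0.55) in reduced cells.

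The redox difference of no member was shown to depend on age (limma interaction, 0 of 40, with 0.775% of all genes called). An unadjusted p under 0.05 was reached by 2 of 40 (9.00% of all genes), TEF2 with 0.38 (SE 0.17, adjusted p = 0.49) and DED1 with -0.62 (SE 0.31, adjusted p = 0.54). For HYP2 the interaction was -0.05 (SE 0.22, adjusted p = 0.98), with an interval of -0.49 to 0.39, so a difference between the ages of more than 1.41-fold either way lies outside it.

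eIF5A works only after a lysine has been turned into hypusine by 2 enzymes, deoxyhypusine synthase (DYS1) and deoxyhypusine hydroxylase (LIA1). DYS1 was higher in oxidized cells at 72 hr, with 133, 108 and 100.2 PPM against 69.5, 35.3 and 50.7 PPM, and its libraries did not overlap. The log2 fold change was 1.03 (SE 0.35, adjusted p = 0.048) at 72 hr, 0.34 (SE 0.35, adjusted p = 0.74) at 48 hr and 0.68 (SE 0.25, adjusted p = 0.06) averaged. The call at 72 hr is marginal, since it held in 8 of 20 alternatives. It was lost without oxidized 48 hr replicate 3, reduced 48 hr replicate 1 or 3, any oxidized 72 hr replicate, or reduced 72 hr replicate 2 or 3, with limma adjusted p up to 0.23 (log2 fold change 0.82, without reduced 72 hr replicate 2). It was also lost with a pseudocount of 50 PPM (0.055), no filter (0.065), the replicate block (0.051) or no variance trend (0.071). The averaged value passed with a mean of at least 50 PPM required (0.047), with median-of-ratios scaling (0.037), and without oxidized 48 hr replicate 2 (0.037), reduced 48 hr replicate 3 (0.045) or reduced 72 hr replicate 1 (0.044). LIA1 held 55.3, 103 and 68.5 PPM in oxidized and 133, 185 and 97.8 PPM in reduced cells at 48 hr, a log2 fold change of -0.79 (SE 0.32, adjusted p = 0.2), and differed by -0.13 (SE 0.32, adjusted p = 0.88) at 72 hr. Of the 13 enzymes that modify elongation factors, 10 were tested, with 0 calls at 48 hr, DYS1 at 72 hr and 0 in the average. Of all genes, 4.86% were called higher at 72 hr. An unadjusted p under 0.05 was reached by 1, 2 and 3 of these enzymes, beside 14.6%, 20.4% and 23.2% of all genes. The third of the smallest p in the average was that of EFM5, an eEF1A methyltransferase listed as YGR001C, with -0.84 (SE 0.35, adjusted p = 0.12), or -1.07 (limma adjusted p = 0.0497) when reduced 48 hr replicate 1 was left out.

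Of 26 regulators and other factors of translation, 24 were tested. None was called at 48 hr, where 1 had an unadjusted p under 0.05 (14.6% of all genes). In oxidized cells 1 was higher at 72 hr (4.86% of all genes) and 2 in the average (4.90%), with none lower. GIR2, which in yeast binds the Gcn1 activator of Gcn2 and the GTPase Rbg2, held 286, 325 and 377 PPM in oxidized and 139, 120.2 and 192 PPM in reduced cells at 72 hr. This is a log2 fold change of 1.10 (SE 0.24, adjusted p = 9.5e-04), past the threshold in all 20 alternatives, against 0.07 (SE 0.24, adjusted p = 0.95) at 48 hr. Its averaged value was 0.58 (SE 0.17, adjusted p = 0.016), a call that ended when reduced 48 hr replicate 1 or 3, oxidized 72 hr replicate 3 or reduced 72 hr replicate 2 was left out (limma adjusted p of 0.055, 0.053, 0.061 and 0.055) or the variance trend was dropped (0.081). The interaction for GIR2 was 1.03 (SE 0.34, limma adjusted p = 0.21). MBF1, a coactivator of Gcn4, differed by 0.35 (SE 0.11, adjusted p = 0.031) in the average, a call that 13 of 19 alternatives to the fit kept. It ended when oxidized 48 hr replicate 3, reduced 48 hr replicate 2 or 3, or oxidized 72 hr replicate 2 or 3 was left out (limma adjusted p of 0.065, 0.079, 0.068, 0.11 and 0.086) and without the variance trend (0.22). SRO9, an RNA-binding protein, differed by 0.66 (SE 0.38, adjusted p = 0.3). Of the 21 genes of tRNA synthetases, with their cofactor ARC1, none was called. An unadjusted p under 0.05 was reached by 0, 1 and 1 of them, beside 14.6%, 20.4% and 23.2% of all genes. The smallest p were those of HTS1 with -0.56 (SE 0.22, adjusted p = 0.092), YHR020W with 0.37 (SE 0.20, adjusted p = 0.27) and SES1 with 0.24 (SE 0.17, adjusted p = 0.42).

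The cytosolic ribosomal protein genes, the other large set of the translation apparatus, gave 0 higher and 1 lower of 137 at 48 hr, 0 and 3 at 72 hr and 0 and 2 in the average (limma), beside 1.42% higher and 2.43% lower of all genes at 48 hr, 4.86% and 4.75% at 72 hr and 4.90% and 6.97% in the average. Their median log2 fold changes were -0.11, -0.07 and -0.09, beside -0.01, -0.14 and -0.07 for the translation factors and -0.07, -0.11 and -0.08 for all genes. The difference of HYP2 of -0.58 lay outside the range of the other 9 elongation factors, whose averaged log2 fold changes ran from -0.22 for EFB1 to 0.60 for ANB1. It was not the lowest of all members, since NIP1, which was not called, had -0.68 in the average. The lowest averaged value of the ribosomal protein genes was -0.97.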

How the data were processed

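Libraries of 12 sorted yeast samples, 3 in each of 4 groups, were primed with barcoded oligo-dT holding a unique molecular identifier and sequenced from the 3′ end. Per the methods and labels, the authors used bcl2fastq 2.17 and bowtie2 with default parameters on sacCer3, removed duplicates by the identifier, counted the reads in a window around each termination site (350 bp before it, 200 bp after it) and divided by the library total. The bowtie2 version, the annotation, the read length and the use of strand are not given in the sources used here. The deposited values are PPM, the reads of a gene per 1e6 reads of the library. The authors' own test, by Anders and Huber, was not used. The table mixes tabs and commas. Its 553 genes in comma blocks were split, 2 genes on broken lines (YCR013C and PYC1) were left out, and 6645 were kept. In all libraries 100% of the values were whole multiples of 1 read (tolerance 0.1). No count test was run.

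log2(PPM + 10) of the 4776 genes that averaged 20 PPM or more was fitted in limma 3.58.1 (R 4.3.3) with 4 group means, 8 residual and 45.1 prior degrees of freedom and a trend in the prior variance. P-values were adjusted by Benjamini-Hochberg over all genes of a comparison, with a threshold of 0.05, and intervals are 95% intervals of the fit. The code was tested on simulated data. Replicate correlations were 0.85 to 0.91 within groups, and replicate pairs differed by more than counting noise (chi-square per degree of freedom 1.42 to 2.80), so all libraries were kept apart. Windows, coding ends and promoter stretches came from the RefSeq annotation of R64 (5924 of 6645 table names matched), and the stop codon stood in for the termination site.

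The members and lists were chosen with earlier results of these data known. Every member is accounted for by role. Library values are given for members past the threshold in a redox comparison or the interaction, for the 6 gene pairs, and for the highest and lowest member. Other pathway lists are given by counts and the 3 genes with the smallest p. Library values of GCD11, NIP1, EFB1, DED1, LIA1, DYS1 and GIR2 were added after their values were seen, as was the fit with the near-identical pairs summed. The alternatives were other pseudocounts (1 and 50 PPM), filters (none, or a mean of at least 50 PPM) and scaling by median of ratios, each library left out, the replicate number as a block, no variance trend, only the libraries of an age, and at least 2-fold. Python 3.11.15, pandas 2.3.3 and matplotlib 3.10.9 made tables and figures.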

Additional observations from a re-analysis of the deposited data

How the results depend on the processing

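HYP2 averaged over both ages kept its direction and its call in the 19 alternatives that changed the fit, with limma adjusted p from 2.6e-05 to 0.040 and log2 fold changes from -0.63 to -0.51. The number of members called at 48 hr (1) became 0 under median-of-ratios scaling, without a trend in the prior variance and with at least 2-fold required, and 0 to 2 with a library left out. At 72 hr it (1) became 2 under median-of-ratios scaling, 0 without the trend and 0 with at least 2-fold required, and 1 to 2 with a library left out. In the average it (1) became 0 with at least 2-fold required, and 1 to 2 with a library left out. The second gene was TEF2 at 72 hr, under the scaling and without reduced 72 hr replicate 3, and GCD11 at 48 hr and in the average, without oxidized 48 hr replicate 2. The losses of HYP2 without the trend (adjusted p 0.29 at 48 hr and 0.14 at 72 hr) go with a larger SE, 0.22 against 0.16. Over 85 gene fold changes the alternatives gave 1634 values, of which 1538 kept direction and side of the threshold, 12 were newly past it, 33 no longer past it and 51 of the other sign. The 51 came from 19 fold changes, none of them past the threshold and none above 0.25 in size. With median-of-ratios scaling the averaged values of TIF2, EAP1, PRT1 and EFT1 turned to 0.015, 0.046, 0.024 and 0.032. With a library left out the averaged value ran from -0.074 to 0.30 for TIF4632, -0.088 to 0.13 for TIF1, -0.12 to 0.00038 for TIF2, -0.12 to 0.18 for TIF3, -0.24 to 0.12 for PAB1, -0.31 to 0.042 for CAF20, -0.24 to 0.22 for EAP1, -0.29 to 0.10 for PRT1, -0.068 to 0.55 for GCD2, -0.054 to 0.14 for TEF4, -0.10 to 0.033 for EFT1, -0.26 to 0.046 for SUP45 and -0.0014 to 0.14 for SUP35. The value at 48 hr ran from -0.044 to 0.28 for GIR2 and -0.48 to 0.11 for MTC7, that at 72 hr from -0.30 to 0.054 for GCD11, -0.46 to 0.012 for TIF5 and -0.35 to 0.076 for LIA1, and the interaction from -0.16 to 0.019 for HYP2. HTS1, not past the threshold in the average, passed without oxidized 48 hr replicate 1 (-0.70, adjusted p 0.029) or reduced 72 hr replicate 1 (-0.72, 0.028). The members' sum without TEF2 was 13308 to 14369.6 PPM in the group means. Whether the replicate numbers pair the libraries is not stated. Deviations from the group means showed no pairing (18 same-number pairs, r from -0.06 to 0.04, with 4 of 12 libraries closest to their own number). Counting noise enters these deviations at this depth, so the check cannot tell whether fractions came from the same culture. The replicate block left 1 member called at 48 hr, 1 at 72 hr and 1 in the average. Summing the near-identical pairs, chosen after seeing the data, gave no call for them. Depth limits the weak members most: the 47 reads of ANB1 and the 3 of GCN3 allow no firm statement.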
